A study of Mus musculus with 16 samples.

Results

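The genes described here are 44 mouse genes of mitosis, the phase in which replicated chromosomes are attached to a spindle of microtubules and drawn apart. They were taken from a list of kinetochore, checkpoint, spindle, cytokinesis and condensin genes by gene symbol, with earlier results of these data known, and all 44 were found among the 19938 genes of the expression table. Of these, 43 matched by exact symbol and 1, listed under the older symbol Sgol1, matched as Sgo1. RNA came from 2 mouse CD8 T cell clones, each the progeny of 1 T cell of the cytotoxic lineage, and was hybridised to Affymetrix whole-transcript arrays, with 4 arrays in each of 4 groups. The groups were the unconventional clone, which the labels call cyclosporine-resistant, activated through anti-CD3 with cyclosporine A at 1 ug/ml; the same clone activated without the drug; the conventional clone, called cyclosporine-sensitive, activated with the drug; and the conventional clone activated without it. In every group the antibody was immobilized 145-2c11, which binds the CD3 part of the T cell receptor complex, in RPMI medium lacking recombinant cytokines. Both clones had been grown beforehand in medium with IL-1a, IL-6, IL-7, IL-15, TNF-α and interferons. Cyclosporine A bound to cyclophilin inhibits calcineurin, the phosphatase that activates the NFAT transcription factors downstream of the T cell receptor. Cells without activation were not analysed here, and each clone stands for itself alone.

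In a dividing cell the centromere of each chromosome carries a kinetochore, whose outer NDC80 complex grips spindle microtubules. Kinetochores that are not yet attached feed the spindle assembly checkpoint, which holds back the anaphase promoting complex. Once that complex is active, securin and the cyclins are destroyed, separase opens cohesin, and a midzone between the parting chromosomes directs the cut between the daughter cells. Messenger RNAs of these proteins are known to be made mostly in late S, G2 and M phase and to be scarce in resting lymphocytes. T cells begin to divide after stimulation of their receptor together with cytokine signals.

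Levels are log2 expression values as deposited, so a difference of 1 is a 2-fold difference. Levels are compared only within a gene, apart from a range of marker levels given below. All changes, standard errors (SE) and adjusted p-values come from limma, fitted over all 19938 genes with Benjamini-Hochberg adjustment, and a gene is said to have risen or fallen where its adjusted p was under 0.05. The labels do not say whether the replicates were separate cultures, so these p-values measure only the spread between the arrays, which may be technical. The array medians lay between 5.16 and 5.35, and the arrays of a group correlated at 0.9947 to 0.998. The CD8 T cell markers were present in all groups for Cd3d, Cd3e and Cd3g, whose group means ran from 10.5 to 12.7, while Cd2 and Cd5, which T cells are known to carry, were at 3.99 to 4.25 and 4.83 to 5.12. Cd8a averaged 8.56 in the unconventional clone with the drug, 10.31 in that clone without it, 11.92 in the conventional clone with the drug and 12.50 in the conventional clone without it. Of 4 markers of CD4 T cells, Cd4 was at 4.21 to 4.32, Cd40lg at 3.13 to 3.40 and Foxp3 at 4.83 to 4.91. Zbtb7b, the helper lineage factor, averaged 7.07 in the unconventional clone with the drug, 6.54 in that clone without it, 6.67 in the conventional clone with the drug and 6.205 in the conventional clone without it, and it passed the test as higher with the drug in both clones and higher in the unconventional clone with and without it. Its part in the results was not tested. The 10 measured B cell, erythroid and granulocyte markers had group means of 3.09 to 5.16, and the 6 fibroblast markers 3.91 to 6.68. With the drug 19 of the 44 mitotic genes in the conventional clone had means of 3.72 to 5.12, inside the range of those 10 markers, and in the other 3 groups 0 did. Changes and folds against such a level are therefore treated as minimum sizes throughout, and no order is read from them. Whether each of these genes was at its own background was not tested.

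Arrays differed in how often they were the extreme one for these genes. Replicate 3 of the unconventional clone with the drug was the highest of its group for 42 of the 44 genes, against 26.4% of all genes. In the unconventional clone without the drug, replicate 3 was the highest for 30 of the 44, against 16.7% of all genes, and in the conventional clone without it replicate 1 was the highest for 31, against 27.2%. The lowest array was replicate 1 of the unconventional clone with the drug for 26 of the 44, against 27.0% of all genes, and replicate 4 of the conventional clone without it for 27, against 29.0%. For the first of these arrays, replicate 3 of the drug-treated unconventional clone, the counts and medians over the 44 genes are given below with and without it. By role the counts without it were the same, with 3 exceptions, spindle motors and microtubule-associated proteins at 6 of 6 lower in the unconventional clone, midzone and cytokinesis genes at 5 of 6 and condensin and chromosome structure genes at 6 of 6. The part of the array in the results on other lists was not tested.

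Most of the 44 genes were lower with cyclosporine A, 37 in the unconventional and 41 in the conventional clone, and 44 with the drug and 43 without it were higher in the unconventional than in the conventional clone. The median over the genes was 8.37, 8.34, 8.73 and 8.50 in the unconventional clone with the drug, against 8.82, 8.91, 9.03 and 8.91 without it. In the conventional clone the median was 5.37, 5.28, 5.08 and 5.45 with the drug, against 7.37, 7.16, 7.33 and 7.14 without it. The 4 ranges of medians did not overlap, and the highest median of the conventional clone lay below the lowest of the unconventional clone. For 40 of the 44 genes the group means ran in the same order, highest in the unconventional clone without the drug, then the same clone with it, then the conventional clone without it, and lowest in the conventional clone with it. The share of all genes with this order was not counted. For 28 of the 44 all 4 groups were separate, with no array of one group inside the range of another. How many of all genes were separate in this way was not counted, so the 28 are given as a description only. Since these are bulk samples, fewer dividing cells and less RNA per cell cannot be told apart.

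**Figure D1:**
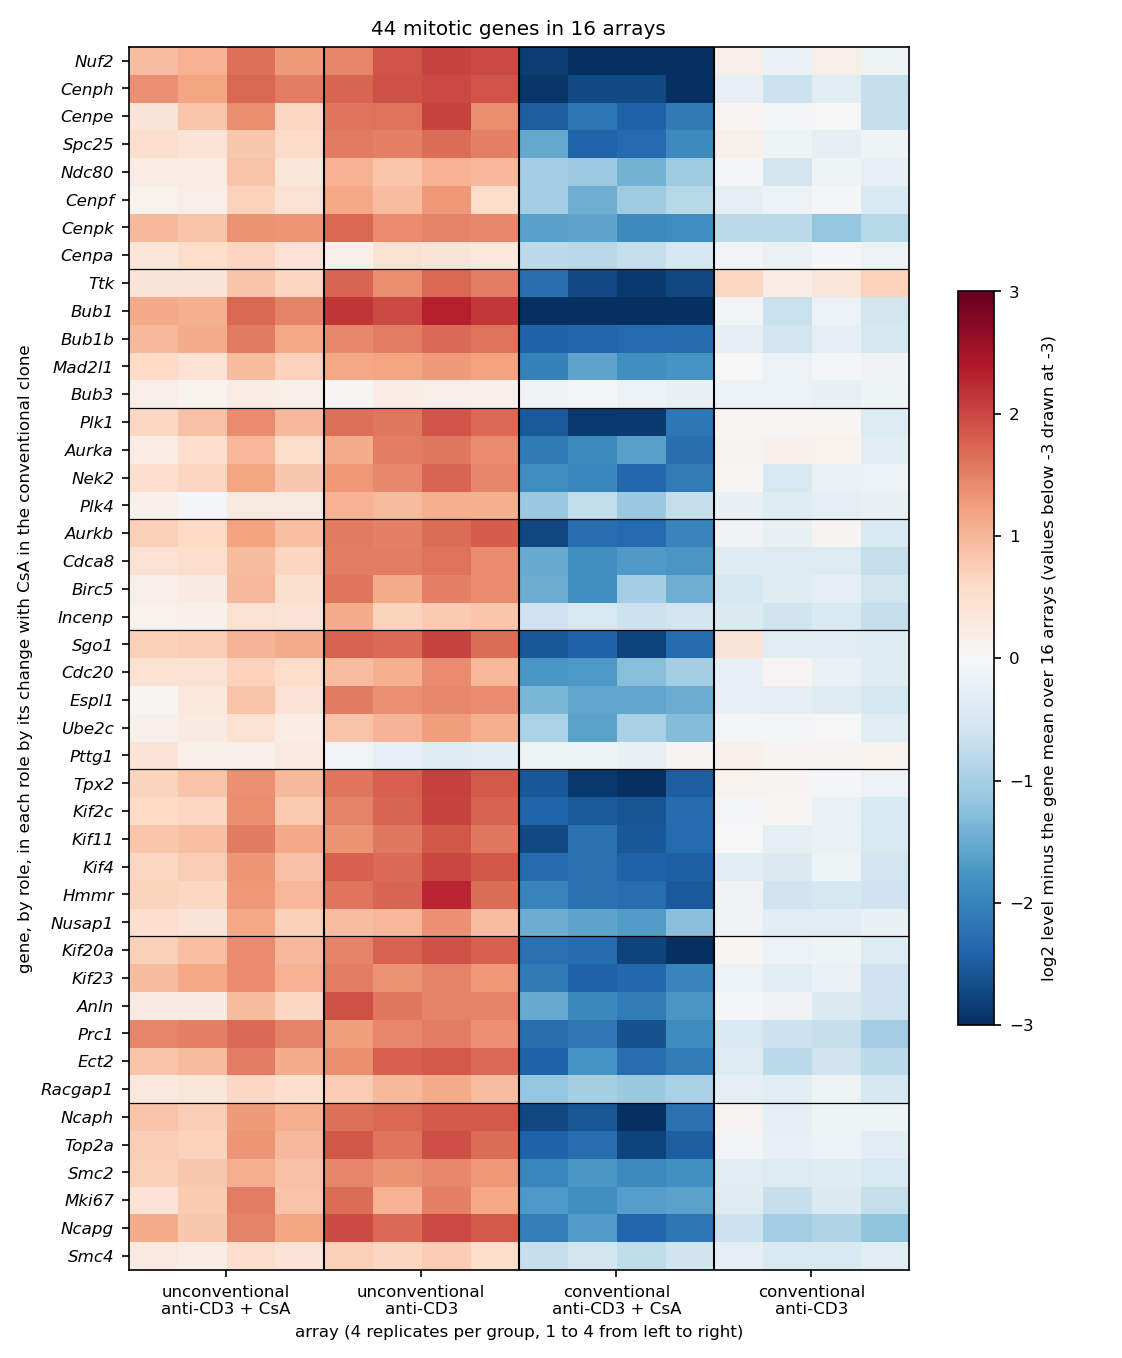
Level of each of the 44 genes on each of the 16 arrays as a log2 difference from the gene's mean over all arrays, with the genes in rows by role and the arrays in columns by group, 4 per group. The columns of the conventional clone with cyclosporine A are the lowest for most rows, and Bub3 and Pttg1 differ little across the arrays.

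In the unconventional clone 37 of the 44 genes fell with cyclosporine A and 1 rose, where 12.3% of all genes fell and 12.6% rose. The median change of the 44 was -0.71, against 0.02 over all genes, and the range ran from -1.10 for Anln to 0.50 for Pttg1. The fall was at least 2-fold for 3 genes, Anln, Espl1 and Ttk, where 1.07% of all genes fell that far. Without replicate 3 of the drug-treated arrays 40 of the 44 fell, 9 of them at least 2-fold, with a median of -0.82. The number past 2-fold was 1 without replicate 1 of the drug-treated arrays, 5 without replicate 2 of the untreated ones, and 2 to 4 without any other array of the clone. For 30 of the 44 genes every drug-treated array lay below every untreated one, against 13.0% of all genes.

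In the conventional clone 41 of the 44 fell and 0 rose, where 15.5% of all genes fell and 15.9% rose by the same limma test. An unadjusted p under 0.05 with a higher level was also found for 0 of the 44. The median change was -1.62, against 0.02 over all genes, and the range ran from -3.13 for Ttk to 0.03 for Bub3. A fall of at least 2-fold was found for 34 of the 44, against 2.69% of all genes. For 42 of the 44 the drug-treated arrays lay wholly below the untreated ones, against 15.1% of all genes. Both clones shared 36 of the genes that fell, an overlap largely fixed by counts of 41 and 37 among 44. How many of all genes fell in both clones was not counted. Cenpa, Kif23, Prc1, Nusap1 and Mki67 fell in the conventional clone and did not pass the test in the unconventional one, Incenp fell in the unconventional clone alone, and Bub3 passed in neither.

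Promoters are shown for a few of these genes because genes of the G2 and M phases are known to share 2 kinds of short element near their start. One is the CHR element, with the core TTTGAA or TTTAAA, where DREAM and MuvB complexes bind; the other is CCAAT, bound by NF-Y. RefSeq windows of 250 bases before to 50 after a transcript start, on assembly GRCm38.p6, were given for 39 of the 44 genes, in 44 windows, and were searched on both strands. TTTGAA or TTTAAA was found in 72.73% of these windows (32 of 44), against 23.66% of the 19177 windows of all genes in the table. TTTGAA, with or without TTTAAA, was in 65.91%, against 14.85%, and TTTAAA, with or without TTTGAA, in 20.45%, against 11.45%. CCAAT was in 77.27%, against 37.39%, and both kinds together were in 61.36%, against 9.27%. None of the 3 motifs contains another. A match says only that these letters are present. The stretches below run 5′ to 3′ on the gene's strand up to the base before the annotated start of the gene, with the motifs in capitals, whichever strand they lie on. Only windows with at least 100 bases before that start were open to showing. Of the genes whose stretch holds TTTGAA or TTTAAA, the 4 with the largest falls in the conventional clone are given, from -2.55 for Plk1 to -1.46 for Smc2, and beside them Bub3, the gene with the highest change there and no call in either clone.
Plk1: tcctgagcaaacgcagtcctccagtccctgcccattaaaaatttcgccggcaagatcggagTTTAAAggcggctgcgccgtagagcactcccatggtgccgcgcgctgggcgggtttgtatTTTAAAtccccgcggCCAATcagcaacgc
Top2a: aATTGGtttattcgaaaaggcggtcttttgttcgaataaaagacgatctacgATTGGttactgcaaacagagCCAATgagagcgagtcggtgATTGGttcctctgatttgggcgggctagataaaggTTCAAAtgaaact
Kif11: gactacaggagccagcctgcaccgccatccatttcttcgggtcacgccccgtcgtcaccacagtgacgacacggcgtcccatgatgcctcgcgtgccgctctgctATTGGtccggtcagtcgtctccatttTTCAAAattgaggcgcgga
Smc2: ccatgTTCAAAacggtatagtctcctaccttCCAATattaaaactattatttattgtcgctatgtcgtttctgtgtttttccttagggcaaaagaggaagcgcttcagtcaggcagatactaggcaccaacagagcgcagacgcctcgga
Bub3: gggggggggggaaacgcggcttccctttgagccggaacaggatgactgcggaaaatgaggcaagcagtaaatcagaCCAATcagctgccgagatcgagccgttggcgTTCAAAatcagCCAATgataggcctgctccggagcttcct
The Plk1 stretch is chr7:122159285-122159434 on the plus strand, that of Top2a chr11:99024200-99024339 on the minus strand and that of Kif11 chr19:37376232-37376381 on the plus strand. The Smc2 stretch is chr4:52439071-52439220 and that of Bub3 chr7:131560220-131560366, both on the plus strand. Plk1 held 2 TTTAAA motifs, and Top2a held 4 CCAAT motifs before its single TTTGAA. Bub3, whose level did not pass the test with the drug in either clone, held both kinds of motif as well. The windows of Nuf2, Ncaph, Mad2l1, Nusap1 and Pttg1 held neither kind, although Nuf2 and Ncaph fell by 3.07 and 2.51 on the log2 scale in the conventional clone.

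Centromere and kinetochore genes fell in 7 of 8 cases in the unconventional clone (median -0.59) and in 8 of 8 in the conventional clone (median -1.43). Nuf2, at chr1:169497934-169531464 (GRCm38.p6), encodes a subunit of the NDC80 complex that binds microtubules. Its level was 8.68, 8.80, 9.40 and 9.02 in the unconventional clone with the drug, against 9.21, 9.63, 9.78 and 9.72 without it. Levels in the conventional clone were 4.90, 4.34, 4.74 and 4.76 with the drug, against 7.93, 7.55, 7.92 and 7.63 without it. The arrays of the conventional clone were far apart, while in the unconventional clone 1 drug-treated array reached into the untreated range. The change was -0.61 (SE 0.15, adjusted p = 0.005) in the unconventional clone and -3.07 (SE 0.15, adjusted p = 4.8e-12) in the conventional clone, a fall of at least 8.4-fold, since the drug-treated level lay in the range of the markers above. Cenph, part of the inner kinetochore network that sits on centromeric chromatin, gave 8.39, 8.21, 8.74 and 8.56 with the drug in the unconventional clone, against 8.76, 8.92, 8.99 and 8.91 without it. Cenph in the conventional clone gave 4.09, 4.30, 4.30 and 3.94 with the drug, against 6.76, 6.37, 6.70 and 6.31 without it. Neither pair of groups overlapped, and the changes were -0.42 (SE 0.12, adjusted p = 0.011) in the unconventional and -2.38 (SE 0.12, adjusted p = 4.9e-12) in the conventional clone.

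Of the other kinetochore genes, Spc25, another NDC80 subunit, changed by -0.99 in the unconventional clone and -1.94 in the conventional clone. Cenpe, a kinesin motor that carries chromosomes to the spindle equator, changed by -0.86 and -2.12 in the same order of clones. Ndc80 itself, the core of its complex, changed by -0.56 and -0.91. Cenpf, a large protein of the outer kinetochore, changed by -0.63 and -0.86, and the inner kinetochore gene Cenpk by -0.40 and -0.83. The drug-treated levels of these genes in the conventional clone lay in the range of the markers above. Those falls are therefore taken as minimum sizes, and no order is read from them. All of these genes passed the test in both clones. Cenpa, the histone H3 variant that marks centromeres, was the exception in this group, with 0.17 (SE 0.09, adjusted p = 0.18) in the unconventional clone and -0.58 (SE 0.09, adjusted p = 1.9e-05) in the conventional clone.

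Checkpoint genes fell in 4 of 5 cases in each clone, with medians of -0.53 in the unconventional and -1.94 in the conventional clone. Ttk, at chr9:83834651-83872390, encodes MPS1, the kinase that starts checkpoint signalling at kinetochores. It stood at 7.33, 7.33, 7.80 and 7.58 in the unconventional clone with the drug, against 8.69, 8.33, 8.66 and 8.47 without it. The conventional clone had 4.67, 4.23, 4.04 and 4.21 with the drug, against 7.56, 7.17, 7.31 and 7.63 without it. No groups within a clone overlapped, and the changes were -1.03 (SE 0.14, adjusted p = 8.3e-06) in the unconventional and -3.13 (SE 0.14, adjusted p = 6.6e-13) in the conventional clone. Bub1, the kinetochore kinase that recruits other checkpoint proteins, measured 8.0, 7.91, 8.57 and 8.35 in drug-treated cells of the unconventional clone, against 9.0, 8.83, 9.17 and 8.98 in untreated ones. In the conventional clone the Bub1 values were 3.84, 3.52, 3.74 and 3.80 with the drug, against 6.76, 6.18, 6.66 and 6.30 without it. Those drug-treated levels averaged 3.72, the lowest of the 44 genes in any group, where RMA compresses differences. The changes of Bub1 were -0.79 (SE 0.14, adjusted p = 0.0002) in the unconventional clone and -2.75 (SE 0.14, adjusted p = 5.7e-12) in the conventional clone.

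Bub1b, which encodes the checkpoint inhibitor BUBR1, changed by -0.38 in the unconventional and -1.94 in the conventional clone. Mad2l1, which encodes the MAD2 subunit of the same inhibitor, changed by -0.53 and -1.73 in that order. Bub3, the WD-repeat partner of BUB1 and BUBR1, behaved unlike them. Its levels were 11.20, 11.09, 11.23 and 11.17 with the drug in the unconventional clone, against 11.04, 11.22, 11.17 and 11.14 without it. They were 10.89, 10.94, 10.81 and 10.77 with the drug in the conventional clone, against 10.83, 10.82, 10.77 and 10.86 without it. The groups within each clone overlapped, with changes of 0.03 (SE 0.06, adjusted p = 0.82) in the unconventional and 0.03 (SE 0.06, adjusted p = 0.76) in the conventional clone.

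The mitotic and centrosome kinases fell in 4 of 4 cases in both clones, with medians of -0.78 in the unconventional and -1.91 in the conventional clone. Plk1, at chr7:122159435-122169884, encodes the polo-like kinase needed for mitotic entry, spindle assembly and cytokinesis. Its level was 8.58, 8.84, 9.36 and 8.91 with the drug in the unconventional clone, against 9.60, 9.52, 9.84 and 9.64 without it. For the conventional clone it was 5.43, 5.06, 5.07 and 5.77 with the drug, against 8.0, 7.99, 8.0 and 7.55 without it. In both clones the drug-treated arrays lay below the untreated ones, by -0.73 (SE 0.16, adjusted p = 0.0017) in the unconventional and -2.55 (SE 0.16, adjusted p = 1.3e-10) in the conventional clone. Aurka, the centrosome kinase that helps build spindle poles, had 7.95, 8.24, 8.73 and 8.29 in the unconventional clone with the drug, against 8.85, 9.27, 9.30 and 9.14 without it. With the drug the conventional clone had 5.61, 5.82, 6.11 and 5.48 for Aurka, against 7.80, 7.85, 7.82 and 7.41 without it. The groups did not overlap, and Aurka changed by -0.84 (SE 0.15, adjusted p = 0.0003) in the unconventional and -1.97 (SE 0.15, adjusted p = 3.1e-09) in the conventional clone. Nek2, which separates centrosomes, changed by -0.69 in the unconventional and -1.85 in the conventional clone. Plk4, which starts the duplication of centrioles, was one of the few genes with the larger change in the unconventional clone, -0.89 against -0.65 in the conventional clone, although that difference did not pass its test (adjusted p = 0.31).

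**Figure D2:**
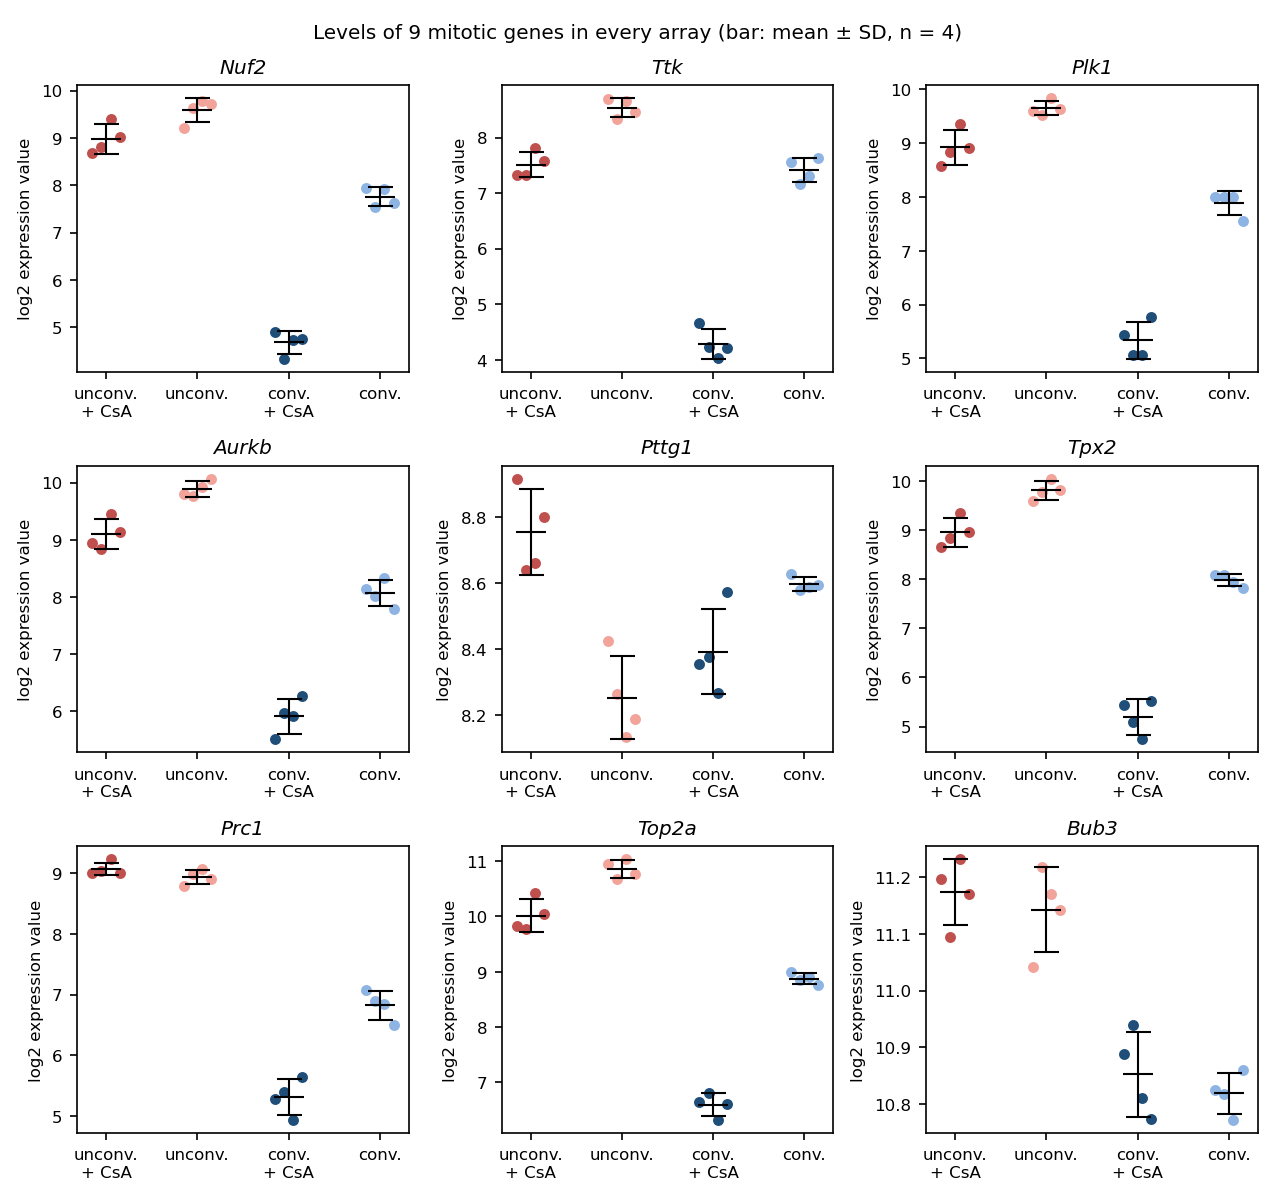
Log2 expression level of 9 of the genes, Nuf2, Ttk, Plk1, Aurkb, Pttg1, Tpx2, Prc1, Top2a and Bub3, with 1 point per array, 4 arrays per group, and lines at each group's mean ± SD; each panel has its own scale. For Ttk the 4 arrays of the conventional clone with cyclosporine A sit between 4.04 and 4.67, below all other groups, while for Bub3 all 16 arrays lie between 10.77 and 11.23.

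The chromosomal passenger complex, which corrects faulty attachments and later moves to the midzone, consists of a kinase and 3 partners, and its genes did not move as one. All 4 fell in the unconventional clone (median -0.84) and 3 of 4 in the conventional clone (median -1.12). Aurkb, the kinase of the complex, stood at 8.95, 8.84, 9.45 and 9.13 with the drug in the unconventional clone, against 9.80, 9.76, 9.93 and 10.07 without it. The conventional clone gave Aurkb levels of 5.51, 5.96, 5.91 and 6.26 with the drug, against 8.14, 8.01, 8.33 and 7.78 without it. Its changes were -0.80 (SE 0.15, adjusted p = 0.00031) in the unconventional and -2.16 (SE 0.15, adjusted p = 4.1e-10) in the conventional clone, without overlap. Cdca8, which encodes the partner borealin, was at 7.55, 7.62, 8.06 and 7.76 with the drug in the unconventional clone, against 8.65, 8.65, 8.73 and 8.53 without it. Cdca8 in the conventional clone was at 5.60, 5.25, 5.40 and 5.35 with the drug, against 6.73, 6.70, 6.70 and 6.39 without it. Here the changes were -0.89 (SE 0.11, adjusted p = 2e-06) in the unconventional and -1.23 (SE 0.11, adjusted p = 1.1e-08) in the conventional clone. Their difference did not pass its test, which does not show that the falls were equal.

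Birc5, which encodes survivin, had higher levels in the unconventional than in the conventional clone. It measured 6.63, 6.69, 7.42 and 6.94 with the drug in the unconventional clone, against 8.06, 7.58, 7.96 and 7.86 without it. It measured 4.98, 4.62, 5.44 and 5.0 with the drug in the conventional clone, against 5.94, 6.08, 6.17 and 5.89 without it. The changes were -0.95 (SE 0.16, adjusted p = 0.00016) in the unconventional and -1.01 (SE 0.16, adjusted p = 4.6e-05) in the conventional clone. The drug-treated mean of 5.01 in the conventional clone lay in the range of the markers above, so that fall is a minimum and its nearness to the other cannot be read as equality. Incenp, the scaffold that ties the kinase to its partners, had 8.42, 8.45, 8.77 and 8.71 with the drug in the unconventional clone, against 9.44, 8.97, 9.10 and 9.14 without it. Incenp levels in the conventional clone were 7.70, 7.84, 7.67 and 7.74 with the drug, against 7.88, 7.71, 7.85 and 7.60 without it, and these overlapped. It fell by 0.57 on the log2 scale in the unconventional clone (SE 0.10, adjusted p = 0.00019), and its change in the conventional clone was -0.03 (SE 0.10, adjusted p = 0.89).

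Genes of the exit from mitosis, grouped as the anaphase promoting complex, separase and cohesion, fell in 4 of 5 cases in each clone, with medians of -0.79 in the unconventional and -1.14 in the conventional clone. Cdc20, the activator that directs the anaphase promoting complex to securin and cyclin B, was at 8.03, 8.04, 8.27 and 8.12 with the drug in the unconventional clone, against 8.51, 8.65, 8.99 and 8.58 without it. In the conventional clone Cdc20 was at 5.84, 5.85, 6.30 and 6.53 with the drug, against 7.33, 7.63, 7.38 and 7.22 without it. The groups were separate, with changes of -0.56 (SE 0.14, adjusted p = 0.0039) in the unconventional and -1.26 (SE 0.14, adjusted p = 3.4e-07) in the conventional clone. Sgo1, shugoshin, which protects centromeric cohesin until anaphase, had 7.59, 7.61, 7.90 and 7.99 with the drug in the unconventional clone, against 8.65, 8.56, 8.90 and 8.54 without it. The Sgo1 levels of the conventional clone were 4.32, 4.44, 4.09 and 4.56 with the drug, against 7.27, 6.52, 6.54 and 6.50 without it. It fell in both, by -0.89 (SE 0.15, adjusted p = 0.00012) in the unconventional and -2.36 (SE 0.15, adjusted p = 1.5e-10) in the conventional clone. Ube2c, the ubiquitin-conjugating enzyme of the complex, changed by -0.79 in the unconventional and -1.09 in the conventional clone, and Espl1, which encodes separase, by -1.03 and -1.14.

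Pttg1, at chr11:43420244-43427463, encodes securin, the inhibitor that holds separase inactive until anaphase. It was the single gene of the 44 that rose with the drug in the unconventional clone. Its level there was 8.92, 8.64, 8.66 and 8.80 with the drug, against 8.42, 8.26, 8.13 and 8.19 without it. In the conventional clone it was 8.35, 8.38, 8.27 and 8.57 with the drug, against 8.63, 8.58, 8.59 and 8.59 without it. The unconventional clone's drug-treated arrays all lay above its untreated ones, and the conventional clone's all lay below. The changes were 0.50 (SE 0.08, adjusted p = 8.4e-05) in the unconventional and -0.21 (SE 0.08, adjusted p = 0.066) in the conventional clone, so the second did not pass the test. It passed without replicate 4 of the drug-treated conventional clone, at -0.27 with an adjusted p of 0.019, and with dim genes left out, at -0.21 with an adjusted p of 0.033. Securin and separase, its target, thus moved in opposite directions in the unconventional clone.

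Spindle motors and microtubule-associated proteins fell in 5 of 6 cases in the unconventional clone (median -0.88) and in 6 of 6 in the conventional clone (median -2.10). Tpx2, which activates Aurora A and seeds microtubules around chromosomes, was at 8.66, 8.84, 9.35 and 8.97 with the drug in the unconventional clone, against 9.59, 9.77, 10.04 and 9.81 without it. With the drug the conventional clone had 5.44, 5.09, 4.74 and 5.52 for Tpx2, against 8.09, 8.08, 7.94 and 7.82 without it. The changes were -0.85 (SE 0.15, adjusted p = 0.00026) in the unconventional and -2.78 (SE 0.15, adjusted p = 2e-11) in the conventional clone, a measured fall of 6.89-fold in the conventional clone. The drug-treated mean of Tpx2 there, 5.20, lay just above the range of the markers, so that fall may be a minimum. Kif2c encodes MCAK, a kinesin that takes microtubule ends apart at centromeres. It gave 7.56, 7.60, 8.37 and 7.76 with the drug in the unconventional clone, against 8.46, 8.71, 8.99 and 8.74 without it. It gave 4.58, 4.44, 4.39 and 4.65 with the drug in the conventional clone, against 6.94, 7.0, 6.78 and 6.50 without it. Again no groups within a clone overlapped, with changes of -0.90 (SE 0.15, adjusted p = 0.00011) in the unconventional and -2.29 (SE 0.15, adjusted p = 2.4e-10) in the conventional clone.

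Kif11, the kinesin Eg5 that pushes the spindle poles apart, changed by -0.48 (SE 0.15, adjusted p = 0.018) in the unconventional and -2.21 (SE 0.15, adjusted p = 2.4e-10) in the conventional clone. Leaving out any of 3 arrays of the unconventional clone took the first of these past 0.05, to adjusted p-values of 0.07 to 0.079. Kif4, a chromosome-bound kinesin, changed by -0.95 in the unconventional and -1.98 in the conventional clone. Hmmr, a spindle-associated protein also known as a hyaluronan receptor, changed by -0.93 and -1.81, and Nusap1, a microtubule-bundling protein, by -0.36 (SE 0.14, adjusted p = 0.066) and -1.25 (SE 0.14, adjusted p = 3.3e-07), the unconventional clone given first. Without replicate 3 of the drug-treated arrays Nusap1 passed in the unconventional clone, with -0.51 and an adjusted p of 0.003.

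Midzone and cytokinesis genes fell in 4 of 6 cases in the unconventional clone (median -0.53) and in 6 of 6 in the conventional clone (median -1.51). Kif20a, a kinesin that brings the passenger complex to the midzone, was at 8.37, 8.57, 9.08 and 8.63 with the drug in the unconventional clone, against 9.15, 9.42, 9.56 and 9.46 without it. Kif20a in the conventional clone was at 5.41, 5.34, 4.88 and 4.67 with the drug, against 7.72, 7.49, 7.54 and 7.24 without it. Its changes were -0.74 (SE 0.16, adjusted p = 0.0015) in the unconventional and -2.42 (SE 0.16, adjusted p = 2.8e-10) in the conventional clone, with no overlap in either. Kif23, the kinesin of the centralspindlin complex, had 8.41, 8.62, 8.88 and 8.50 with the drug in the unconventional clone, against 8.99, 8.80, 8.95 and 8.74 without it. For Kif23 the conventional clone gave 5.33, 5.03, 5.09 and 5.47 with the drug, against 7.27, 7.12, 7.25 and 6.83 without it. The groups of the unconventional clone overlapped, and the changes were -0.27 (SE 0.12, adjusted p = 0.11) in the unconventional and -1.89 (SE 0.12, adjusted p = 1.1e-10) in the conventional clone. Kif23 also passed in the unconventional clone when replicate 3 of the drug-treated arrays was left out, with -0.36 and an adjusted p of 0.032.

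Prc1, which bundles the antiparallel microtubules of the midzone, did not pass the test in the unconventional clone either. Its level was 9.0, 9.04, 9.23 and 9.01 with the drug in the unconventional clone, against 8.78, 8.98, 9.07 and 8.91 without it. It was 5.28, 5.39, 4.93 and 5.64 with the drug in the conventional clone, against 7.07, 6.89, 6.84 and 6.50 without it. The unconventional clone's groups overlapped and those of the conventional clone did not. The changes were 0.13 (SE 0.13, adjusted p = 0.56) in the unconventional and -1.51 (SE 0.13, adjusted p = 8.7e-09) in the conventional clone. Anln, the actin-binding protein anillin of the cleavage furrow, had the largest fall of the 44 in the unconventional clone, -1.10 (SE 0.16, adjusted p = 2.6e-05), beside -1.51 (SE 0.16, adjusted p = 2.1e-07) in the conventional clone. Ect2, the exchange factor that activates RhoA at the furrow, changed by -0.57 in the unconventional and -1.50 in the conventional clone, and Racgap1, the other centralspindlin subunit, by -0.49 and -0.74.

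Condensin and chromosome structure genes fell in 5 of 6 cases in the unconventional clone (median -0.62) and in 6 of 6 in the conventional clone (median -1.31). Ncaph, the kleisin subunit of condensin I, was at 8.61, 8.49, 9.03 and 8.82 with the drug in the unconventional clone, against 9.40, 9.47, 9.60 and 9.58 without it. The conventional clone had Ncaph at 5.01, 5.19, 4.77 and 5.52 with the drug, against 7.84, 7.47, 7.61 and 7.61 without it. The groups were apart, with changes of -0.77 (SE 0.13, adjusted p = 0.00015) in the unconventional and -2.51 (SE 0.13, adjusted p = 1.1e-11) in the conventional clone. Top2a, which encodes the topoisomerase that untangles sister chromatids, measured 9.83, 9.77, 10.42 and 10.05 with the drug in the unconventional clone, against 10.94, 10.68, 11.03 and 10.77 without it. The Top2a values of the conventional clone were 6.65, 6.81, 6.32 and 6.61 with the drug, against 9.0, 8.84, 8.91 and 8.75 without it. Its changes were -0.84 (SE 0.13, adjusted p = 3.2e-05) in the unconventional and -2.28 (SE 0.13, adjusted p = 1.8e-11) in the conventional clone. Top2a was the one gene with a second probe set of its own, which had group means of 2.57 to 3.22 and changed by -0.29 in the unconventional and -0.21 in the conventional clone.

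The core condensin subunits differed from each other. Smc4 had 10.23, 10.16, 10.45 and 10.34 with the drug in the unconventional clone, against 10.64, 10.59, 10.70 and 10.49 without it. It had 9.24, 9.39, 9.18 and 9.32 with the drug in the conventional clone, against 9.65, 9.47, 9.48 and 9.59 without it. These are small, separate steps in both clones, -0.31 (SE 0.08, adjusted p = 0.0046) in the unconventional and -0.26 (SE 0.08, adjusted p = 0.012) in the conventional clone. Smc2, the ATPase that pairs with SMC4, changed by -0.51 in the unconventional and -1.46 in the conventional clone. Ncapg, another condensin I subunit, changed by -0.72 and -1.13 in that order. Mki67, which encodes the proliferation marker Ki-67 on the surface of mitotic chromosomes, changed by -0.44 (SE 0.17, adjusted p = 0.069) in the unconventional and -1.16 (SE 0.17, adjusted p = 1.7e-05) in the conventional clone. Without replicate 3 of the drug-treated arrays the change of Mki67 in the unconventional clone was -0.65, with an adjusted p of 0.0015.

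The drug's effect was set against itself between the clones by an interaction term, the change in the unconventional minus the change in the conventional clone. For genes that fell in both clones a positive value means a smaller fall in the unconventional clone; Pttg1 rose in the unconventional clone, and Cenpa and Prc1 had changes above 0 there that did not pass the test. Of the 44 genes 29 were called higher and 1 lower, where 8.51% of all genes were higher and 7.78% lower, and the median difference was 0.95, against 0.00 over all genes. The difference was at least 2-fold for 21 of the 44, against 1.66% of all genes. For the 34 genes with a called fall of 2-fold or more in the conventional clone, the median change in the unconventional clone was 37.2% of that in the conventional one, with a range from -8.8% for Prc1 to 93.6% for Birc5. These shares are upper limits for 16 of the 34 genes, whose drug-treated level in the conventional clone lay in the range of the markers above. For the other 18 the median was 36.9%, with a range from -8.8% for Prc1 to 90.6% for Espl1. Several of these 18, among them Tpx2, Kif23, Espl1 and Plk1, had drug-treated means just above that range in the conventional clone. Their shares may be upper limits too. Without replicate 3 of the drug-treated unconventional clone 29 were called higher as well, with a median difference of 0.87.

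Among the largest measured differences were those of Nuf2 at 2.46 (SE 0.22, adjusted p = 1e-07), Ttk at 2.10 (SE 0.19, adjusted p = 1.6e-07), Bub1 at 1.96 (SE 0.20, adjusted p = 5.4e-07), Cenph at 1.95 (SE 0.17, adjusted p = 7.6e-08) and Tpx2 at 1.93 (SE 0.22, adjusted p = 2.2e-06). Those of Nuf2, Ttk, Bub1 and Cenph are minimum sizes, because their levels in the drug-treated conventional clone lay in the range of the markers above. Among the 25 genes above that range, the largest were those of Tpx2, Plk1 at 1.82, Prc1 at 1.65 and Kif23 at 1.62. In the drug-treated conventional clone the means of Tpx2, Plk1, Prc1 and Kif23, 5.20 to 5.33, lay just above that range, with single arrays inside it. Their sizes may also be minima, and no order is read from them. All 6 spindle motors and microtubule-associated proteins were called, as were 4 of 5 checkpoint genes and 3 of 4 kinases. The passenger complex was divided, with Aurkb at 1.36 (SE 0.21, adjusted p = 7.6e-05), Cdca8 at 0.34 (SE 0.15, adjusted p = 0.15), Birc5 at 0.06 (SE 0.23, adjusted p = 0.92) and Incenp at -0.55 (SE 0.14, adjusted p = 0.01). The genes nearest to an equal response were Bub3 at -0.00 (SE 0.09, adjusted p = 0.99), Smc4 at -0.05 (SE 0.11, adjusted p = 0.87) and Birc5. Espl1 was also close, at 0.11 (SE 0.17, adjusted p = 0.78). Of these, Birc5 had a fall in the conventional clone that is a minimum. Espl1 had fallen about 2-fold in each clone. Its drug-treated mean in the conventional clone, 5.32, lay just above the range of the markers, so its fall there may also be a minimum. These p-values do not show that the responses were equal.

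**Figure D3:**
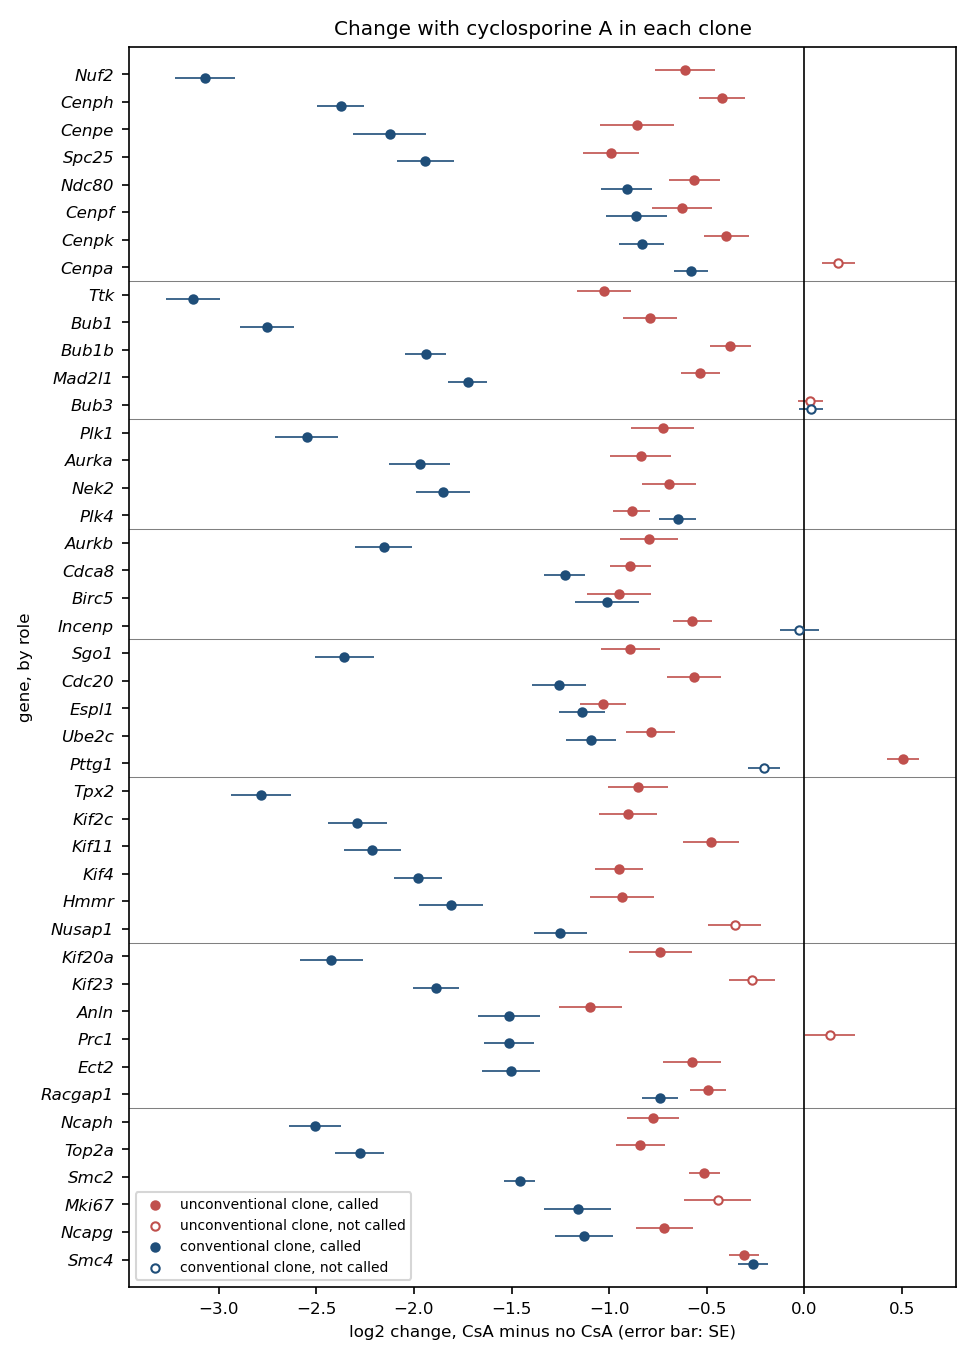
Log2 change with cyclosporine A, drug minus none, of each of the 44 genes in the unconventional and in the conventional clone, with bars of 1 standard error from the limma fit. The falls reach -1.10 in the unconventional clone and -3.13 in the conventional clone, and Pttg1 alone is called higher, at 0.50 in the unconventional clone.

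Between the clones with the drug present, 44 of the 44 genes were higher in the unconventional than in the conventional clone, 41 of them at least 2-fold, where 21.3% of all genes were higher, 23.0% lower and 5.57% at least 2-fold higher. The median difference was 2.86, against -0.08 over all genes. Among the largest measured differences were Bub1 at 4.48 (SE 0.14, adjusted p = 1.1e-15), which is at least 22.3-fold, Cenph at 4.31 (SE 0.12, adjusted p = 1.9e-16), Nuf2 at 4.29 (SE 0.15, adjusted p = 9.1e-15), Prc1 at 3.76 (SE 0.13, adjusted p = 3.7e-15) and Tpx2 at 3.76 (SE 0.15, adjusted p = 7.2e-14). Those of Bub1, Cenph and Nuf2 are minimum sizes for the same reason. Among the 25 genes above the range of the markers the largest were those of Prc1, Tpx2 and, at 3.59, Plk1. The means of Prc1, Tpx2 and Plk1 in the drug-treated conventional clone, 5.20 to 5.33, lay just above that range, so no order is read from them either. The smallest were those of Bub3 at 0.32 (SE 0.06, adjusted p = 0.00028), Pttg1 at 0.36 (SE 0.08, adjusted p = 0.001) and Incenp at 0.85 (SE 0.10, adjusted p = 5.6e-07). In each of the 44 the 4 arrays of the unconventional clone lay above the 4 of the conventional clone, which held for 20.9% of all genes. Without replicate 3 of the drug-treated unconventional clone 44 were higher as well, with a median of 2.76.

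Without the drug 43 of the 44 were higher in the unconventional clone and 1, Pttg1, was lower, where 20.3% of all genes were higher and 21.7% lower. The difference was at least 2-fold for 41, against 4.41% of all genes, and the median was 1.82, against -0.07 over all genes. The largest measured differences were those of Ncapg at 2.81 (SE 0.15, adjusted p = 4.4e-12), Bub1 at 2.52 (SE 0.14, adjusted p = 1.1e-11), Cenpk at 2.43 (SE 0.11, adjusted p = 9.6e-13), Cenph at 2.36 (SE 0.12, adjusted p = 2.7e-12) and Ect2 at 2.33 (SE 0.15, adjusted p = 8.7e-11). Cenpk averaged 5.32 in the untreated conventional clone, just above the range of the markers, with replicate 3 inside it at 5.07. Its difference may be a minimum, and its place in this order is not read. Pttg1 differed by -0.35 (SE 0.08, adjusted p = 0.0019), Bub3 by 0.32 (SE 0.06, adjusted p = 0.0003) and Cenpa by 0.45 (SE 0.09, adjusted p = 0.00024). The clone comparisons share their arrays with the drug comparisons, so they are not independent of them. Of the 9 measured CD8 T cell markers, 5 were lower in the unconventional clone with the drug and 3 without it, and the others did not pass the test. Cd68, which macrophages carry, averaged 9.14 in the unconventional clone with the drug and 8.05 in the conventional clone with it, and 8.71 and 7.26 in the same order without it. It was the 1 of 7 macrophage and dendritic cell markers that was higher in the unconventional clone; 2 of the 7 were lower there with the drug, and the medians of the 7 were 3.96 to 4.06 in the 4 groups. Its part in the result was not tested.

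**Figure D4:**
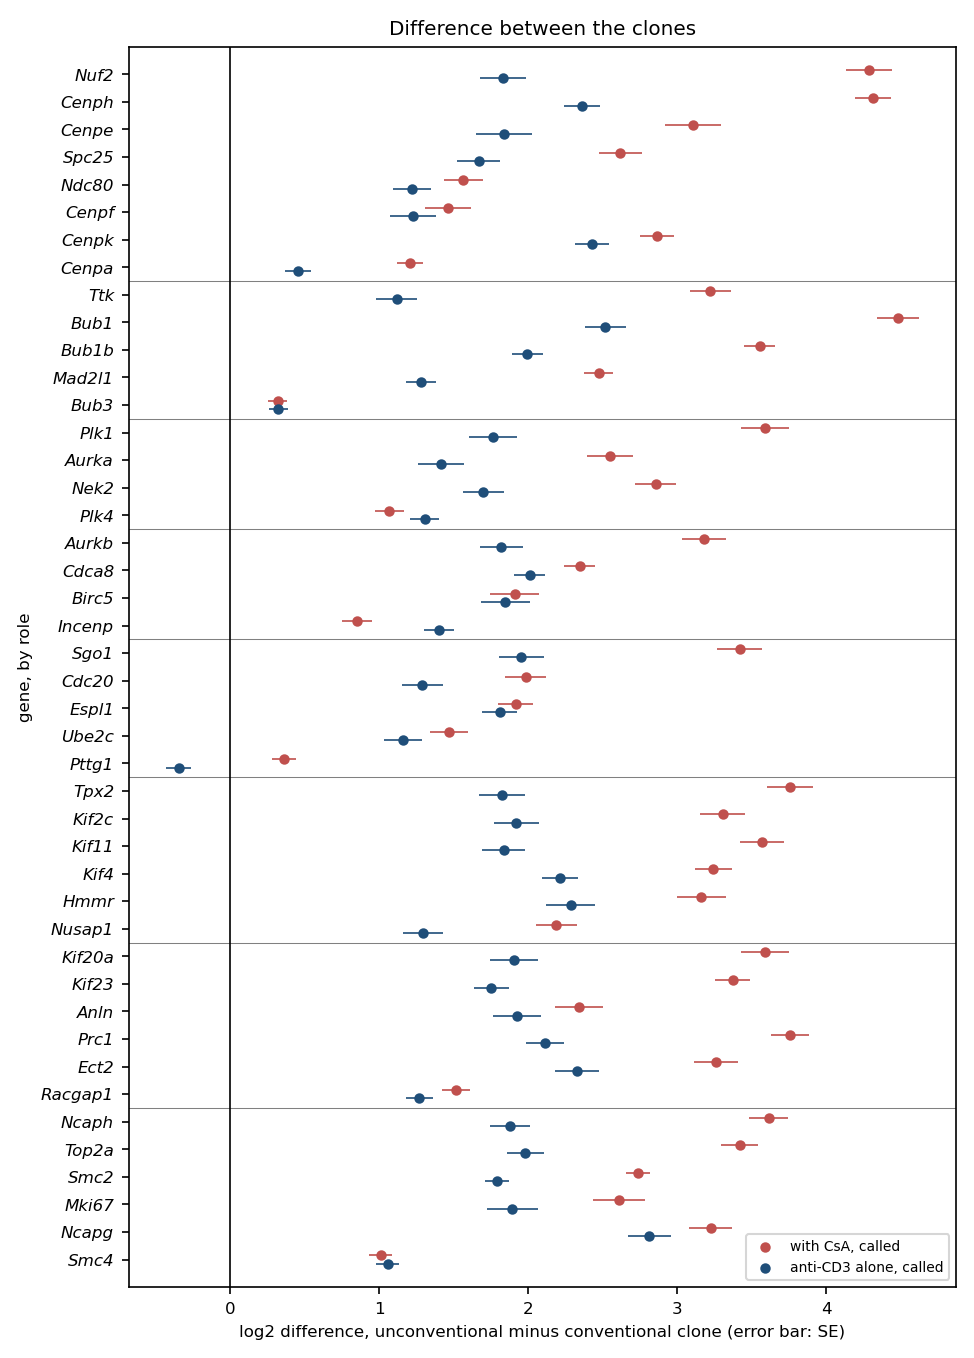
Log2 difference between the clones, unconventional minus conventional, for each of the 44 genes with and without cyclosporine A, with bars of 1 standard error from the limma fit. All 44 differences are above 0 with the drug, up to 4.48 for Bub1, and 43 are above 0 without it, Pttg1 being at -0.35.

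The unconventional clone with the drug was also set against the conventional clone without it, a comparison chosen after the others had been seen. In 43 of the 44 genes every array of the drug-treated unconventional clone lay above every array of the untreated conventional clone, against 21.5% of all genes, and 0 lay wholly below, against 19.8%. The median difference was 1.01, against -0.05 over all genes, and the largest was 2.25 for Prc1. Leaving out replicate 3 of the drug-treated arrays gave 43 of the 44 as well, against 22.4% of all genes, with a median of 0.86. Ttk was the exception, with 7.33, 7.33, 7.80 and 7.58 in the unconventional clone with the drug, against 7.56, 7.17, 7.31 and 7.63 in the conventional clone without it, a difference of 0.09.

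Other genes of the cell cycle were followed through 7 lists of 152 genes, of which 144 were measured. Over all genes 12.3% fell and 12.6% rose with the drug in the unconventional clone, and 15.5% fell and 15.9% rose in the conventional clone. The counts of every list below stand beside these shares. Genes of cyclins, CDK1 and its switches fell in 7 of 10 cases in the unconventional clone (median -0.61). In the conventional clone 10 of 10 fell (median -1.13). Ccna2, cyclin A2, which drives S phase and mitotic entry, changed by -0.82 (SE 0.16, adjusted p = 0.00043) in the unconventional and -3.51 (SE 0.16, adjusted p = 1e-12) in the conventional clone. Cdk1, the kinase that starts mitosis, changed by -1.02 (SE 0.12, adjusted p = 1.4e-06) in the unconventional and -2.85 (SE 0.12, adjusted p = 2.7e-13) in the conventional clone. Fbxo5, which encodes EMI1, an inhibitor of the anaphase promoting complex, changed by -1.14 and -2.28 in that order. Ccnb1 and Cdkn1a had no probe set with a single symbol and were not analysed here.

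Kinetochore and centromere genes outside the 44 fell in 20 of 25 cases in the unconventional clone (median -0.58) and in 16 of 25 in the conventional clone (median -0.49), led there by Cenpi at -2.87 and the checkpoint adaptor Kntc1 at -2.35. The other spindle, motor and cytokinesis genes fell in 19 of 25 in each clone, with 1 higher in the unconventional clone and 2 higher in the conventional one, and medians of -0.56 in the unconventional and -1.09 in the conventional clone. Cep55, which acts at the last cut of cytokinesis, changed by -1.18 in the unconventional and -2.75 in the conventional clone. Condensin and cohesin genes outside the 44 fell in 7 of 15 in the unconventional clone and in 8 of 15 in the conventional clone, where 3 rose. The anaphase promoting complex itself, whose subunits are made throughout the cell cycle, had 4 of 14 lower and 3 higher in the unconventional clone. In the conventional clone 4 were lower and 2 higher. Over all genes 12.3% were lower and 12.6% higher in the unconventional clone, and 15.5% lower and 15.9% higher in the conventional clone. The medians of these subunits were -0.01 in the unconventional and -0.06 in the conventional clone.

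Among 17 regulators of mitotic transcription 9 fell and 2 rose in the unconventional clone, and 12 fell and 2 rose in the conventional clone. Foxm1, a forkhead factor of G2 and M phase genes, changed by -0.81 (SE 0.12, adjusted p = 4.6e-05) in the unconventional and -0.86 (SE 0.12, adjusted p = 1.2e-05) in the conventional clone. Mybl2, which encodes B-MYB, the partner of MuvB at such promoters, changed by -0.99 (SE 0.11, adjusted p = 6.2e-07) in the unconventional and -2.11 (SE 0.11, adjusted p = 5.2e-12) in the conventional clone. Between the clones Foxm1 was higher in the unconventional one by 1.70 with the drug and by 1.65 without it, and Mybl2 by 2.69 and 1.57. Rbl2, which encodes p130, the pocket protein of the repressive DREAM complex, ran the other way. It was lower in the unconventional clone by -1.76 (SE 0.09, adjusted p = 1e-12) with the drug and -3.08 (SE 0.09, adjusted p = 2.7e-16) without it. With the drug it changed by 0.27 (SE 0.09, adjusted p = 0.024) in the unconventional and -1.05 (SE 0.09, adjusted p = 6.5e-09) in the conventional clone.

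DNA replication genes, the nearest related group, fell in 35 of 38 cases in each clone, with medians of -0.49 in the unconventional and -1.40 in the conventional clone, and 2 of them, Prim2 and Rpa1, rose in the conventional clone. Between the clones 37 of 38 were higher in the unconventional one with the drug, against 21.3% of all genes. Without it 38 of 38 were higher, against 20.3%. Their median level per array averaged 9.53 in the unconventional clone with the drug, 10.03 in that clone without it, 7.47 in the conventional clone with the drug and 8.65 in the conventional clone without it, the same order as the mitotic genes. Whether the 44 differ from the replication genes was not tested.

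**Figure D5:**
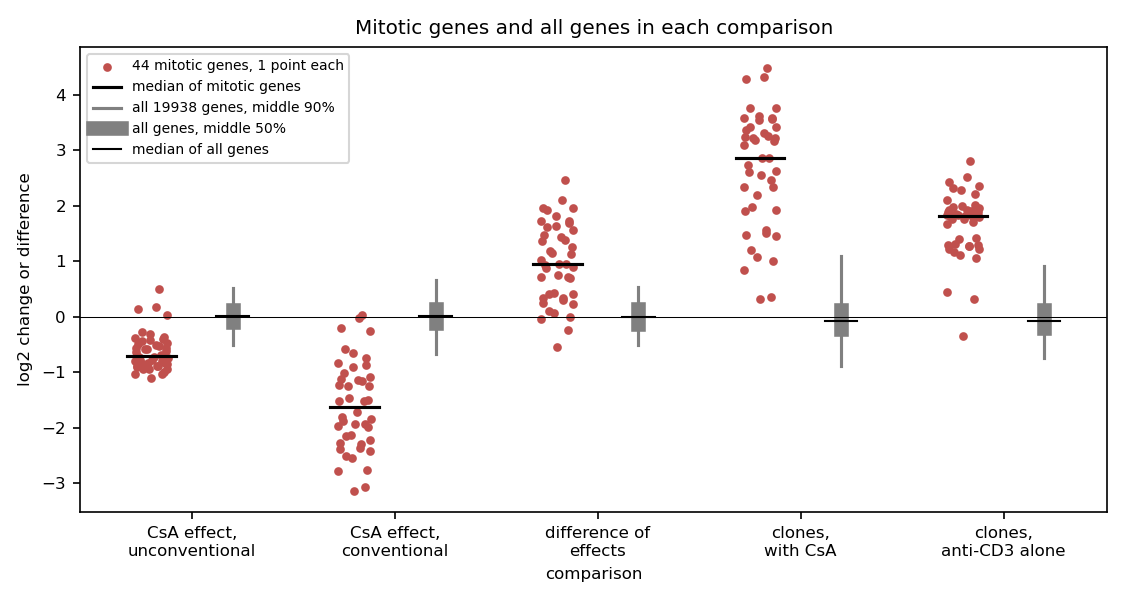
Log2 change or difference of the 44 mitotic genes, 1 point per gene with a line at their median, beside the median and the middle 50% and 90% of all 19938 genes, in each of the 5 comparisons. The medians of the 44 are -0.71 and -1.62 for cyclosporine A in the unconventional and the conventional clone and 2.86 and 1.82 between the clones with and without it, all outside the middle 90% of all genes.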

How the data were processed

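The deposited table holds log2 expression values per probe set for 16 arrays. GCOS, RMA and Partek 6.2 are named in the submitters' processing notes, with no roles; the log2 scale was read from the values, which ran from 2.08 to 14.55. RMA brings the probe values of all arrays to one distribution before they are summarised by probe set (the probe set medians still ran from 5.16 to 5.35), so a shift of most transcripts may be hidden, and it compresses differences at low levels. The genome build used by the authors is not given in the sources used here. Of 28853 probe sets, 21789 had 1 gene symbol, 1621 several and 5443 none here; for the 999 genes with more than 1 probe set the brightest was used, which gave 19938 genes, with no filter on dim ones. No probe set with several symbols was used for a gene. The number of arrays limits the precision, since arrays hold no counts.

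limma 3.58.1 (R 4.3.3) was used to fit group means to the 16 arrays together (12 residual degrees of freedom, 18.8 after moderation, median), and 5 contrasts were adjusted over all genes. Groups were taken from the sample titles. The scripts were tested on simulated data with known changes. Positions are from the RefSeq gene table of GRCm38.p6. The 44 members and all gene lists were chosen with earlier results of these data known. Genes given array by array are, per role, the 2 with the largest change with cyclosporine A in the conventional clone, those that moved against the rest or passed in neither clone, and those with the largest and smallest difference of effects; Prc1 was added after its values were seen. Of the other lists, up to 4 genes with the largest changes, Foxm1, Mybl2 and Cdk1 were open to naming. Other normalizations, filters, probe set rules, variance models and each array left out in turn were tried as alternatives.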

Additional observations from a re-analysis of the deposited data

Results flagged for a closer look

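Single arrays lay far from the rest of their group in 9 of 176 gene and group combinations by Dixon's test for an outlying value; chance alone gives about 8.8. Replicate 4 of the conventional clone without the drug was the low one in 5 of the 9, with 5.66 for Cenpe, 7.41 for Aurka, 7.55 for Plk1, 6.39 for Cdca8 and 7.88 for Ube2c. Replicate 3 of the conventional clone with the drug was low for Ndc80, at 4.69. Sgo1 was high at 7.27 in replicate 1 of the conventional clone without the drug, Nusap1 at 8.67 in replicate 3 of the unconventional clone without it, and Prc1 at 9.23 in replicate 3 of the unconventional clone with it.

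The effect of cyclosporine A differed between the clones for 30 of the 44 genes by the interaction term of the limma fit (adjusted p under 0.05). The change in the unconventional minus that in the conventional clone was above 0 for 29 of them, which for genes that fell in both clones is a smaller fall in the unconventional one. It was above 0 for Nuf2 by 2.46, Ttk by 2.10, Bub1 by 1.96, Cenph by 1.95, Tpx2 by 1.93, Plk1 by 1.82, Kif11 by 1.73, Ncaph by 1.73, Kif20a by 1.69, Prc1 by 1.65, Kif23 by 1.62 and Bub1b by 1.56. Next came Sgo1 by 1.47, Top2a by 1.44, Kif2c by 1.39, Aurkb by 1.36, Cenpe by 1.27, Mad2l1 by 1.19, Nek2 by 1.16, Aurka by 1.13 and Kif4 by 1.03. Smaller differences were those of Spc25 by 0.95, Smc2 by 0.95, Ect2 by 0.93, Nusap1 by 0.89, Hmmr by 0.88, Cenpa by 0.75, Pttg1 by 0.71 and Cdc20 by 0.69. Incenp differed the other way, by -0.55.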

How the results depend on the processing

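Counts of genes that rose or fell and median changes of the 44 kept their direction and stayed within 1.5 times the reported counts in all 5 contrasts under 10 alternatives (9 for the difference of effects, where fitting the arrays of the contrast alone gives no other value) and with each array left out. With the drug the number lower was 37 to 39 under the alternatives and 34 to 40 with an array left out in the unconventional clone, and 41 to 42 under both in the conventional clone. Medians ran from -0.82 to -0.61 in the unconventional and from -1.71 to -1.51 in the conventional clone. The count of genes at least 2-fold lower in the unconventional clone was the exception, at 1 to 9 in place of 3 with an array left out, 6 with median centring or cyclic loess and 2 to 3 under the other alternatives. The difference of effects was higher for 29 to 31 genes, the clones differed with medians of 2.76 to 2.93 with the drug and 1.74 to 1.88 without it, and the number higher between the clones stayed at 44 with the drug and 43 without it. Single values near 0, none past the threshold, changed sign. These were Incenp in the conventional clone at 0.0022 with quantile normalization and up to 0.0145 with an array left out (range -0.0798 to 0.0145), Bub3 in the unconventional clone at -0.0247 with median centring and -0.0034 with an array left out (range -0.0034 to 0.0565), and, for the difference of effects, Smc4 at 0.0075 with quantile normalization and, with an array left out, Bub3 (range -0.0372 to 0.0256), Birc5 (-0.103 to 0.2074) and Espl1 (-0.0375 to 0.2247); the cause was not tested. In the unconventional clone Cenpk (adjusted p 0.051 to 0.062), Kif11 (0.07 to 0.079) and Cenph (0.056) lost their call when single arrays were left out. Others gained one: in the unconventional clone Nusap1 (adjusted p 0.003 to 0.046) and Mki67 (0.0015 to 0.044) under several settings each and Kif23 (0.032) with an array left out, in the conventional clone Pttg1 (0.019 and 0.033), and for the difference of effects Mki67 (0.011 to 0.045) and Cenpk (0.031 to 0.049). With the replicate number as a block 38 genes fell in the unconventional clone, in place of 37, and 30 differed upwards between the clones' responses, in place of 29; the other counts were equal. Whether the numbers pair the arrays was not tested. Of 24 same-numbered pairs, 3 had deviations that correlated above 0.1 (mean 0.0232, range -0.1368 to 0.2844). In 19 of 48 comparisons an array was closest to its own number among the 4 arrays of another group. An even choice among them gives fewer. The 48 comparisons reuse the same pairs of arrays and are not independent, so no pairing is read from them.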
